A study of Drosophila melanogaster with 6 samples.

Results

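The 4 RNA libraries of *ft* null embryos are described here by how far they lie from each other. All 4 come from whole *Drosophila melanogaster* embryos of 16-20 h, kept at 25 °C on grape agar, with the allele pair ft fd5-5/ft X13. The series calls this pair null for *ft*, the gene of the giant cadherin Fat. They are 4 of the 6 libraries of the series, and the 2 libraries of the other genotype were not used beyond 1 alternative way of scaling. Of 17208 genes in the count table, 8675 had a mean level of at least 5 CPM (counts per 1000000) over the 4 libraries and were ranked. Each gene's spread is its range, the highest minus the lowest log2 CPM of the 4, and a range of 1 stands for a 2-fold difference. A gene with a range of at least 1 is called wide.

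Fat is a cell surface protein that binds Dachsous on neighbouring cells, orients cells within epithelia and restrains growth through the Hippo pathway. In the last hours of embryogenesis the epidermis builds its apical matrix and denticles and then lays down cuticle over them. Over the same hours muscle, nervous system and gut turn on the genes of their mature function, and most cells have left the division cycle. Many of these genes are switched on or off within a short time, so an embryo's place in the collection window bears on their level. The labels give 1 window for the 4 libraries and no age within it, and they do not say whether the libraries came from separate collections or how many embryos each held. Every value below therefore measures the spread between these libraries, which may be technical. Differences in age, handling and RNA preparation between them cannot be told apart, and with 1 group there is no test, so all values are descriptions.

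The libraries held 21261928, 22575469, 23421306 and 29151981 estimated counts in replicates 1, 2, 3 and 4, and 5 CPM stood for 106 to 144 reads. TMM scaling factors lay between 0.99 and 1.03. The 10 genes with the most counts took 7.23% to 7.87% of a library. The mitochondrially encoded share was 0.573% in replicate 1 and 0.701% to 0.818% in the other 3, and the ribosomal RNA share was 0.792% in replicate 1 and 1.01% to 1.08% in the others. The part of these shares in the results below was not tested. The median deviation of replicate 1 lay between -0.02 and 0.03 (log2) in each of 5 classes of gene length.

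*ft* itself (2L from 4198404 to 4221796, minus strand, dm6 coordinates) was among the steadier genes. It stood at 28.5, 28.5, 32.0 and 30.3 CPM in replicates 1 to 4, a range of 0.17 that placed it at rank 7282 of 8675. None of the 11 measured genes of the Fat and Dachsous list was wide, against 6.74% of all genes. *ds*, the gene of the ligand Dachsous, stood at 69.2, 71.1, 77.6 and 66.4 CPM, and *fj*, the gene of the Golgi kinase that modifies both cadherins, at 34.5, 40.5, 36.8 and 38.9 CPM. The widest were *Dlish*, an adaptor that acts below Fat, with a range of 0.39, and *d*, the gene of the myosin Dachs, with 0.38. Yorkie targets, the genes induced when Hippo signalling is low, held no wide gene among 16 either, against the same share of all genes. Their widest member was *CycE* at 28.4, 17.9, 20.8 and 15.5 CPM, and *Diap1*, the caspase inhibitor gene, stood at 484, 502, 425 and 459 CPM.

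Most genes differed little between the libraries. The median range was 0.33, a 1.26-fold difference between the highest and the lowest library, and 5% of genes had a range above 1.15. Wide genes numbered 585, which is 6.74% of the 8675. A range of at least 2, a 4-fold difference, was reached by 92 genes (1.06%) and a range of at least 3 by 25. At the threshold, the nearest gene inside had a range of 1.00009 and the nearest outside one of 0.998941. Ranges were wider among low genes: over 5 classes of equal size by level, the median was 0.44 in the lowest class and 0.27 to 0.30 in the 3 upper ones. Short genes were wide more often: 11.3% of the shortest of 5 length classes was wide, and 2.61% of the longest. By gene class, 570 of 8514 protein-coding genes were wide and 7 of 76 noncoding RNA genes.

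**Figure D1:**
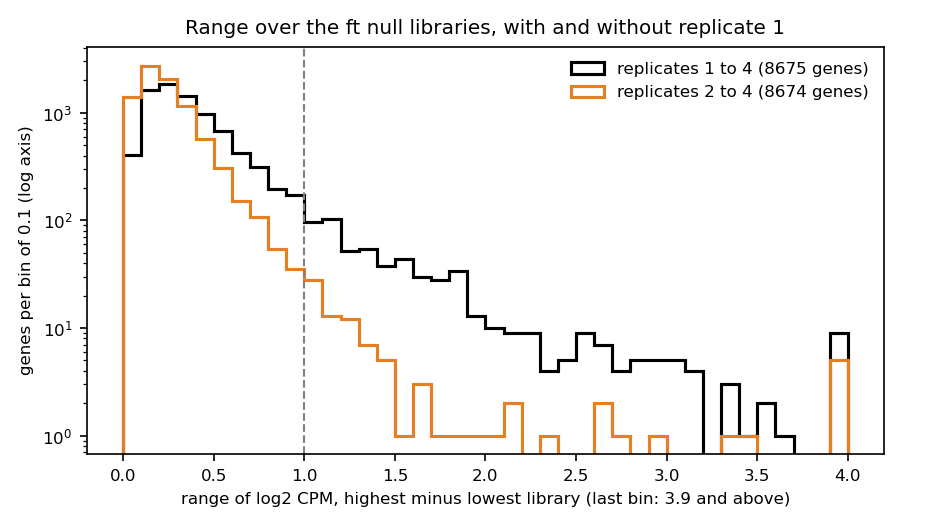
Histogram of the range of log2 CPM per gene (horizontal axis, log2 units) against the number of genes per bin (vertical log axis), for replicates 1 to 4 (black) and for replicates 2 to 4 (orange); the dashed line marks a range of 1. Past the line lie 585 genes with all 4 libraries and 87 without replicate 1.

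Replicate 1 stood apart from the other 3. It differed at least 2-fold from replicate 2 in 293 genes, from replicate 3 in 285 and from replicate 4 in 533. Among replicates 2, 3 and 4 the same count was 33, 37 and 51 for the pairs 2 and 3, 2 and 4, and 3 and 4. Across genes, which are not independent replicates, Spearman's rho was 0.959 to 0.977 for pairs with replicate 1 and 0.991 to 0.992 for the others. No pair was as close as repeated counting of 1 library would be: the median over genes of the squared difference divided by its counting variance was 3.58 for the closest pair and 14.5 for replicates 1 and 4. The common biological coefficient of variation (edgeR) was 17.0%, and 11.1% without replicate 1, against 16.6% to 19.5% without one of the others. Only 87 genes were wide over replicates 2 to 4, of which 82 were among the 585. Results below are therefore also given without replicate 1 for the 6 lists with the widest medians and for some others.

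The first principal component held 74.0% of the variance and set replicate 1 (score -32.0) against replicate 4 (21.0), with replicates 2 (4.29) and 3 (6.69) between them. The second held 15.0% and set replicate 2 (12.7) against replicate 3 (-12.1), with the other 2 near 0.

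Each gene's 4 values were also split at their largest gap, which gives 1 of 14 patterns. In 358 of the 585 wide genes (61.2%) replicate 1 lay below the other 3, a pattern of 22.4% of all 8675 genes. The 358 wide ones are 4.13% of all genes, and replicate 4, which was highest in 28.6% of all genes, was the highest library in 344 of them. Replicate 1 lay above the other 3 in 113 wide genes (19.3%), close to the 19.5% of all genes with this pattern. These 113 are 1.3% of all genes, and replicate 4, lowest in 28.2% of all genes, was the lowest in 74 of them. Replicates 1 and 3 were high together in 30 wide genes (0.346% of all genes, of which 7.14% had the pattern at any range). Replicates 1 and 2 were high together in 25 wide genes (0.288%, with 6.5% at any range), and replicate 4 alone was low in 19 (0.219%, with 7.29% at any range). Every other pattern held at most 10. In all, replicate 1 was the highest or the lowest library in 572 of 585 wide genes (97.8%), against 72.3% of all genes. It was the highest in 186 of them and the lowest in 386, against 37.3% and 35.0% of all genes.

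**Figure D2:**
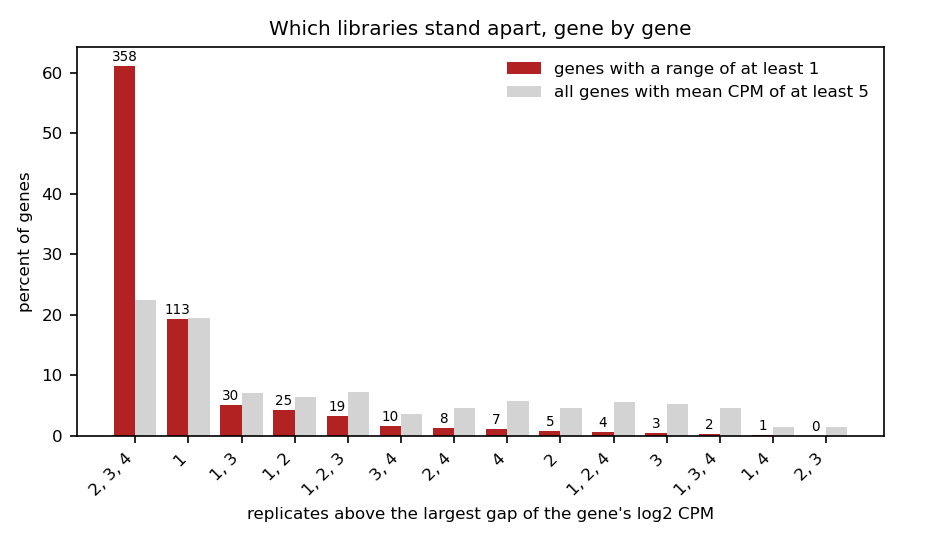
Share of genes in each of the 14 patterns (vertical axis, percent); the horizontal axis names the replicates above the largest gap. Red bars are the 585 wide genes, with their number printed, and grey bars all 8675 genes; the pattern with replicate 1 low is 61.2% of wide genes and 22.4% of all genes.

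The 5 widest genes had no reads in at least 1 library, and each was also summed with a gene it overlaps, lies beside or resembles. *CG33502* had 0, 0, 0 and 35.8 CPM in replicates 1 to 4, and its neighbour on X, *CG32857*, had 43.8, 44.7, 39.4 and 5.68 CPM. Summed, they gave 43.8, 44.7, 39.4 and 41.5 CPM, so the total was even and its split between the 2 genes was not. *CG42507*, which overlaps the transcription factor gene *Trl*, had 34.0, 0, 0 and 20.6 CPM, a range of 8.68. *Trl* alone stood at 290, 304, 286 and 303 CPM, a range of 0.09, and the pair summed had a range of 0.18. *CG46312*, inside the span of the translation factor gene *eIF5*, had 0, 0, 9.44 and 29.0 CPM. That pair summed had a range of 0.20, against 0.34 for *eIF5* alone. *CR10102*, a pseudogene beside the capsid-like gene *Arc1*, had 0, 0, 20.6 and 5.30 CPM. With *Arc1* it summed to 233, 262, 188 and 158 CPM, a range of 0.73, against 0.78 for *Arc1* alone. *Trl*, *eIF5* and *Arc1* stood far above the genes summed with them, so their sums cannot show whether reads were shared. All are counted among the 585. For the overlapping genes the own values are uncertain, since a quantifier shares reads between such genes by a model; whether it did so for *CG33502* and *CR10102*, which overlap no other gene, was not tested. The genes they were summed with were chosen after their values were seen.

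The widest gene of all, *Cpr65Ax1*, encodes a chitin-binding cuticle protein (3L from 6147531 to 6147987, minus strand). It had 0 reads in replicate 1 and 104.19, 88.8 and 127 CPM in replicates 2, 3 and 4. Its near-identical partner *Cpr65Ax2* had 350.03 CPM in replicate 1 and 646, 703 and 887 CPM in the others. Summed, the pair stood at 350.03, 749.8, 792 and 1014 CPM, a range of 1.54 in place of 10.58. The pair was thus low in replicate 1 by either count; how the reads were assigned between the copies was not tested.

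**Figure D3:**
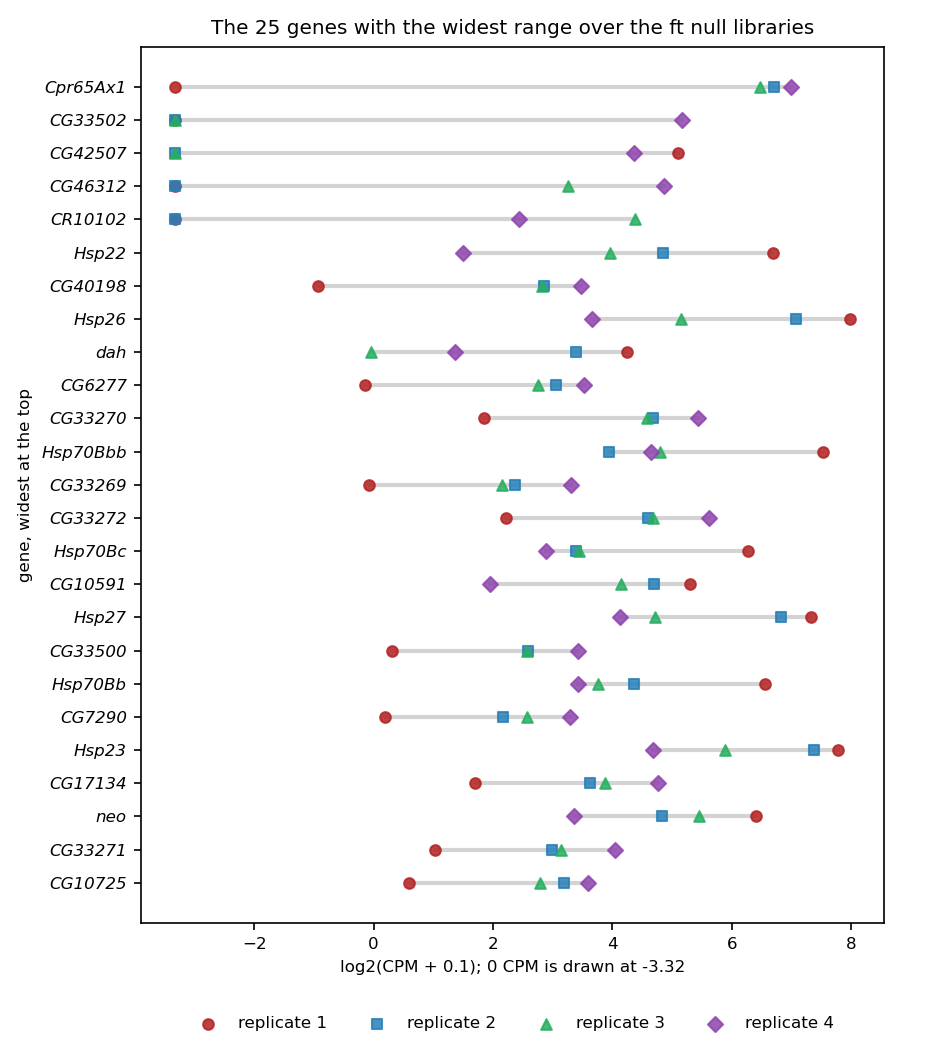
The 25 genes with the widest range (rows, widest at the top) and their level in each library as log2(CPM + 0.1) on the horizontal axis; each symbol is 1 library and the grey bar is the range. Replicate 1 (red) is at one end of most rows: the high end for the heat shock genes and *neo*, the low end for *Cpr65Ax1*, *CG33270* and *CG33272*.

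Heat shock genes, which encode inducible chaperones that bind unfolded proteins, had the widest list medians. Of 16 measured members, 10 were wide, against 6.74% of all genes, and 15 of the 16 had their highest value in replicate 1, which was the highest library in 37.3% of all genes. The median deviation of the list from each gene's own mean was 1.47, -0.02, -0.30 and -0.79 (log2) in replicates 1 to 4. Without replicate 1 the range of these medians was 0.38 in place of 2.25, and 5 members were still wide.

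In 4 small heat shock genes of 1 cluster on 3L replicate 1 was highest and replicate 2 second. *Hsp22*, which encodes a mitochondrial small chaperone (3L from 9372931 to 9374964), stood at 103.6, 28.8, 15.4 and 2.74 CPM in replicates 1 to 4. *Hsp26*, of the same cluster (3L from 9376418 to 9377427), had 253, 135, 35.3 and 12.6 CPM. Both had their lowest value in replicate 4, and *Hsp22* differed by a range of 5.20 between replicates 1 and 4. *Hsp27* had 160.4, 113, 25.99 and 17.5 CPM and *Hsp23* 219.6, 166, 58.8 and 25.6 CPM, so in both the gap lay between replicates 1 and 2 on one side and 3 and 4 on the other. Over replicates 2 to 4 alone these 4 genes were still among the 11 widest, with ranges of 3.36 for *Hsp22*, 3.42 for *Hsp26*, 2.69 for *Hsp27* and 2.69 for *Hsp23*. Ahead of all 4 stood *CG33502*, *CG46312*, *CR10102*, *CG42507* and a ribosomal RNA precursor gene. *Hsp67Bc*, the small heat shock gene next to *Hsp22*, did not follow them, with 58.8, 58.6, 53.3 and 51.5 CPM.

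Hsp70 genes were high in replicate 1 alone. The 6 copies of this chaperone gene are nearly identical and share reads by a model, so their sum is the safer value: 916, 136, 191 and 147 CPM, a range of 2.75. Among them *Hsp70Ab* stood at 559.9, 90.0, 139 and 104.5 CPM and *Hsp70Bbb* at 184, 15.3, 27.7 and 25.0 CPM. *Hsp70Bc* and *Hsp70Bb* had ranges of 3.39 and 3.13, *Hsp70Ba* was under the level filter and *Hsp70Aa* had no reads in any of the 4. *Hsp68*, a single-copy relative, stood at 49.4, 14.3, 8.48 and 7.21 CPM. *Hsp83*, the Hsp90 gene, is made without stress as well, and it had 3571, 1988, 2234 and 1069 CPM. Genes of the regulator and of co-chaperones were not wide. *Hsf*, which encodes the heat shock transcription factor, had 133, 102, 102 and 88.9 CPM, also highest in replicate 1 and lowest in replicate 4, and *DnaJ-1*, *stv* and *Hsc70Cb* had ranges of 0.55, 0.23 and 0.35. Unfolded protein response genes, which serve the endoplasmic reticulum, held no wide gene among 21, against 6.74% of all genes. The chaperone gene *Calr* stood at 1372, 1226, 1184 and 1189 CPM.

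Genes that build the apical matrix of the epidermis before cuticle were also highest in replicate 1. Osiris genes encode a family of insect proteins found in ectoderm that is forming cuticle. All 14 measured Osiris genes had their highest value in replicate 1, against 37.3% of all genes, and 8 were wide, against 6.74%. The list medians were 0.72, -0.34, -0.03 and -0.36 in replicates 1 to 4. *Osi7*, the member with the most reads, stood at 2427, 834.7, 1317 and 985 CPM, and *Osi6* at 1651, 549.5, 883 and 602 CPM. Replicate 3 came second for both of them. *Osi17* had 52.1, 15.5, 31.2 and 15.2 CPM, whereas *Osi2* paired replicates 1 and 2, with 468, 466, 287 and 253 CPM. The smallest range of the family was 0.53, in *Osi20*. Without replicate 1 the range of the list medians was 0.18 in place of 1.09, and 2 of 13 measured members were wide.

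ZP domain proteins are transmembrane proteins that shape the matrix over each denticle. In the denticle and ZP list 8 of 21 measured members were wide, against 6.74% of all genes, all with replicate 1 highest. Replicate 1 was highest in 16 of 21, against 37.3% of all genes. Without replicate 1 the range of the list medians was 0.07 in place of 0.51, and 4 of 21 members were wide. *mey* stood at 165, 44.6, 85.1 and 36.5 CPM and *nyo* at 87.8, 24.4, 53.9 and 20.4 CPM. *neo* had 84.3, 28.4, 43.8 and 10.2 CPM and *tyn* 305, 107, 191 and 77.5 CPM. In these 4 genes replicates 1 and 3 were above replicates 2 and 4. *dyl*, the member with the most reads, had 1249.5, 479, 648.5 and 451 CPM, and *m* (*miniature*) 102, 33.2, 58.002 and 30.6 CPM. *pio*, a ZP gene of tracheal and epidermal matrix, went the other way, with 81.4, 136, 125 and 149 CPM. *Np*, the gene of a membrane protease that processes matrix proteins, had 168, 49.9, 97.4 and 36.8 CPM. Replicate 3 came second in 70 of the 113 wide genes in which replicate 1 was high alone (61.9%), against 39.4% of the 1695 genes with that pattern at any range.

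Some genes of the steroid hormone pathway had this pattern as well, although the list as a whole was flat, with medians from -0.01 to 0.08. Of its 19 genes 5 were wide, against 6.74% of all genes. *ImpE1* and *ImpE2*, first known as ecdysone-induced genes of imaginal discs, stood at 456, 163, 293 and 168 CPM and at 470.2, 176, 243 and 154 CPM. *Hr4*, a nuclear receptor gene, had 161, 58.2, 89.9 and 47.1 CPM and *ImpL2*, whose product binds insulin-like peptides, 214, 101, 136 and 61.7 CPM. All 4 were highest in replicate 1 with replicate 3 second. *Hr39*, another nuclear receptor gene, was lowest in replicate 1, at 32.4, 59.7, 53.1 and 72.9 CPM. *ftz-f1*, a nuclear receptor gene and the member with the most reads, had 993, 1069.5, 897 and 998.6 CPM.

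Genes of the cuticle itself lay on the opposite side. RR-type proteins bind chitin, and 21 of their 55 measured genes were wide, against 6.74% of all genes. All 21 had replicate 1 below the other 3, a pattern of 61.2% of all wide genes. The list medians were -0.43, 0.18, -0.03 and 0.25 in replicates 1 to 4, and 10 of 55 genes were above their own mean in replicate 1, against 52.3% of all genes. *Cpr49Af* stood at 3.398, 13.9, 15.4 and 18.4 CPM and *Cpr47Eg* at 29.3, 70.8, 76.0 and 105 CPM. *Cpr11A* had 65.1, 153, 187 and 244 CPM. *Lcp65Ag3*, 1 of 3 near-identical larval cuticle genes, had 345, 683, 758 and 899 CPM. In each of these replicate 4 was highest and replicate 1 lowest. Not all cuticle genes did this: *Cpr51A*, the RR gene with the most reads, had 1337.5, 2018, 1567 and 1701 CPM, and *Cpr66D* was highest in replicate 1, with 572, 484, 385 and 392 CPM. Without replicate 1, no RR gene was wide and the range of the medians was 0.28 in place of 0.69.

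Tweedle genes, which encode cuticle proteins that set larval body shape, were split. Of 21 measured, 4 were wide (19.0%, against 6.74% of all genes). These were *TwdlP*, *TwdlN* and *Twdlalpha* with replicate 1 low and *TwdlU* with replicate 1 high. *TwdlP* had 29.2, 68.2, 80.5 and 98.9 CPM, whereas *TwdlM*, the member with the most reads, had 5293, 8144, 5765 and 7194 CPM. Among chitin and apical matrix genes 3 of 33 were wide (9.09%), all low in replicate 1: the chitinase gene *Cht5* (27.1, 51.0, 57.0 and 64.2 CPM), the deacetylase gene *Cda9* and the growth factor gene *Idgf1*. Of 23 tanning and barrier genes 2 were wide (8.70%, against 6.74% of all genes), and the medians were -0.06, 0.01, 0.01 and 0.05. One was *e* (*ebony*), which encodes an enzyme that makes pale cuticle pigment, at 42.8, 75.1, 87.5 and 109 CPM. The other was *yellow-f2*, a gene of melanin synthesis, at 5.99, 12.1, 13.1 and 17.5 CPM. In both replicate 1 was below the other 3. Replicate 1 was highest in 6 of the 23, against 37.3% of all genes, among them *amd*, an enzyme gene of cuticle tanning, at 489, 331, 331 and 279 CPM.

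Of 579 wide genes on the chromosome arms, 120 (20.7%) had a wide gene as the nearest measured gene, against 6.17% of all 8594 measured genes there. In 94 of the 120 the neighbour had the same pattern. Of all wide genes, 61.2% had replicate 1 low and 19.3% had it high, so many pairs share a pattern whatever their place. The largest run, on 3L from 16264713 to 16308480, held 10 wide genes among 17 measured, 5 of them with replicate 1 low. Among the 10 were *CG13051* at 32.0, 66.3, 50.1 and 72.9 CPM and *CG4962* at 30.0, 76.2, 71.2 and 105 CPM. The cuticle cluster on 3L from 6136215 to 6152745 held 7 wide genes of 8 measured, all with replicate 1 low. On 3L from 11508637 to 11582197, 5 of 9 measured genes were wide with replicate 1 low: *CG33500*, *CG33272*, *CG33271*, *CG33270* and *CG33269*, for which the files and annotation give no function. *CG33270* stood at 3.49, 25.4, 23.9 and 43.2 CPM and *CG33272* at 4.58, 24.005, 25.6 and 49.1 CPM, and all 5 are among the 25 widest genes. On 3R from 6150116 to 6251683, 4 of the 5 wide genes were Osiris genes.

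Digestive genes of the midgut were low in replicate 1. Of 26 measured, 12 were wide, against 6.74% of all genes. All 12 had replicate 1 below the other 3, a pattern of 61.2% of all wide genes. The list medians were -0.53, 0.15, 0.10 and 0.27. *alphaTry* and *thetaTry*, which encode trypsins, stood at 2.22, 8.03, 8.07 and 13.8 CPM and at 1.79, 4.71, 7.07 and 8.32 CPM. The protease gene *yip7* had 66.1, 142, 199.6 and 233 CPM. *Mal-A1*, a maltase gene, had 5.29, 15.7, 19.2 and 20.5 CPM, and *Mal-A3*, a relative with the most reads of the list, 429, 692, 633 and 777 CPM. The amylase gene *Amy-p* and *GATAe*, which encodes a transcription factor of the endoderm, were highest in replicate 1 instead, at 19.5, 11.3, 13.2 and 9.98 CPM and at 200.4, 153, 148 and 142 CPM. In bulk RNA such as this, fewer cells of a type and less RNA per cell cannot be told apart. Without replicate 1 no digestive gene was wide, and the range of the medians was 0.23 in place of 0.81.

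Genes of cell division were also highest in replicate 1, and several were high in replicate 2 as well. In the cell cycle and DNA replication list 8 of 47 measured members were wide, against 6.74% of all genes. The commonest pattern of the list was replicate 1 high alone, in 21 of 47 against 19.5% of all genes. A further 10 of 47 had replicates 1 and 2 above replicates 3 and 4, a pattern of 6.5% of all genes. The list medians were 0.33, 0.02, -0.19 and -0.15. *CycB*, the gene of cyclin B, which drives mitosis, stood at 85.3, 62.2, 11.9 and 21.9 CPM. *polo*, a mitotic kinase gene, had 32.0, 23.6, 7.57 and 11.1 CPM. *borr*, which encodes a subunit of the chromosomal passenger complex, had 12.7, 10.5, 2.54 and 4.54 CPM. In all 3 the lowest library was replicate 3. *tum*, which acts in cytokinesis, had 41.5, 26.5, 12.7 and 15.7 CPM, and *fzy*, which encodes an activator of cyclin destruction, 11.04, 9.38, 4.95 and 3.78 CPM. A further 3 genes outside this list had the same split: *CycB3*, a mitotic cyclin gene, at 45.7, 30.8, 12.4 and 17.5 CPM, *bora*, an activator of Aurora kinase, at 9.86, 6.596, 1.29 and 2.43 CPM, and *dah*, which acts in the actin furrows of early nuclear cycles, at 18.9, 10.4, 0.873 and 2.46 CPM.

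Genes of DNA replication and of mitosis both varied in range. *PCNA*, the gene of the DNA polymerase clamp, stood at 41.0, 31.6, 34.7 and 31.8 CPM. *Orc1*, which encodes a subunit of the origin complex, had 40.3, 23.1, 23.0 and 17.2 CPM, and *Mcm7*, which encodes a subunit of the replicative helicase, 40.7, 28.6, 22.3 and 20.5 CPM. *CycA*, another mitotic cyclin gene, had 33.0, 29.3, 20.9 and 21.5 CPM, and the mitotic kinase gene *Bub1* had a range of 0.24. The string phosphatase gene *stg* had the smallest range of the list, 0.15. Without replicate 1 the genes *CycB*, *borr* and *polo* were still wide, with ranges of 2.38, 2.02 and 1.63, while the list medians had a range of 0.20 in place of 0.52. Of 17 maternal egg transcripts, which the mother loads into the egg, 2 were wide (11.8%, against 6.74% of all genes), and the medians were 0.02, 0.05, -0.04 and -0.02. The wide ones were *CycB3* and the translational repressor gene *smg* (107, 89.8, 46.6 and 67.6 CPM), and *gcl*, the member with the most reads, had 332, 371, 357 and 381 CPM. Early patterning genes held 1 wide gene of 23 (4.35%, against 6.74% of all genes), *run*. Of the 23, 15 had replicate 1 alone high, against 19.5% of all genes, and the list medians were 0.18, -0.01, -0.08 and -0.03. Neural progenitor genes had replicate 1 highest in 14 of 24, against 37.3% of all genes. Among them *mira*, which encodes a scaffold of dividing neuroblasts, stood at 93.9, 72.2, 66.3 and 59.8 CPM.

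**Figure D4:**
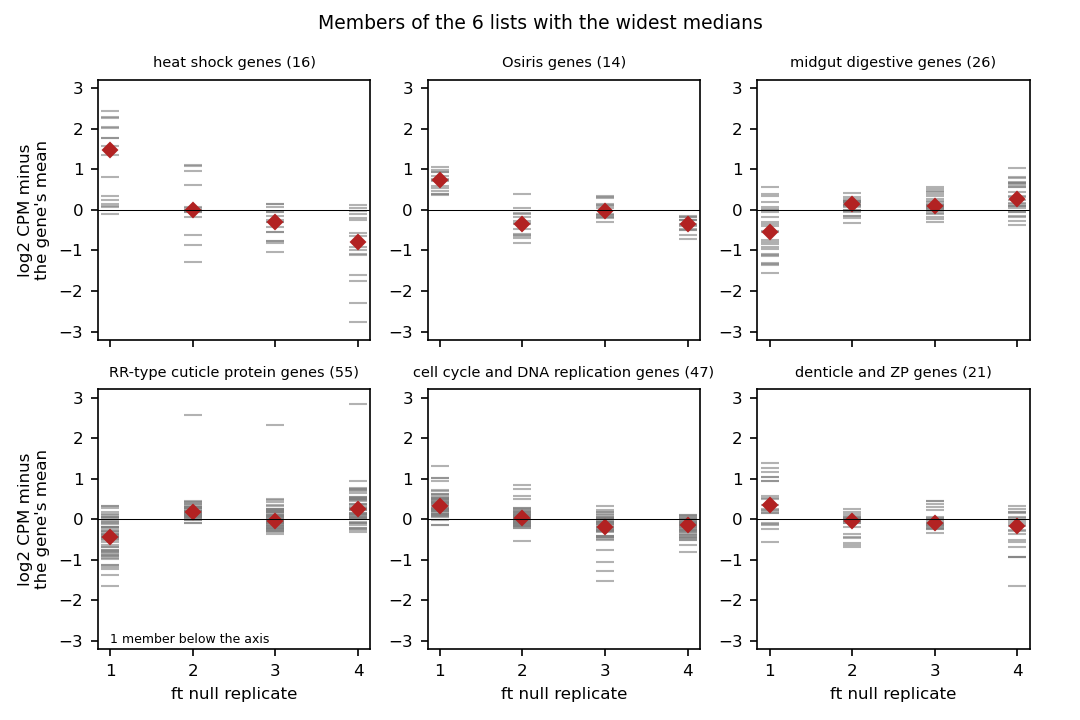
Members of the 6 lists with the widest medians: each grey dash is 1 gene's log2 CPM minus its mean over the 4 libraries (vertical axis), by replicate (horizontal axis), and red diamonds are list medians. Heat shock, Osiris, cell cycle and denticle medians are highest in replicate 1 (0.33 to 1.47), midgut and RR cuticle medians lowest there (-0.53 and -0.43); *Cpr65Ax1* in replicate 1 lies below the axis.

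Over all 45 lists with at least 5 measured members, replicate 1 had the highest median in 22 and the lowest in 12. The range of the medians was under 0.25 in 28 lists. The flattest were glycolysis and hypoxia genes (0.03) and tubule and hindgut genes (0.04), but flat lists could hold wide genes. *Irk2*, a potassium channel gene of the latter list, had 11.2, 33.2, 39.3 and 53.8 CPM, and *Hex-C*, a hexokinase gene of the former, 14.2, 27.1, 35.9 and 36.7 CPM.

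**Figure D5:**
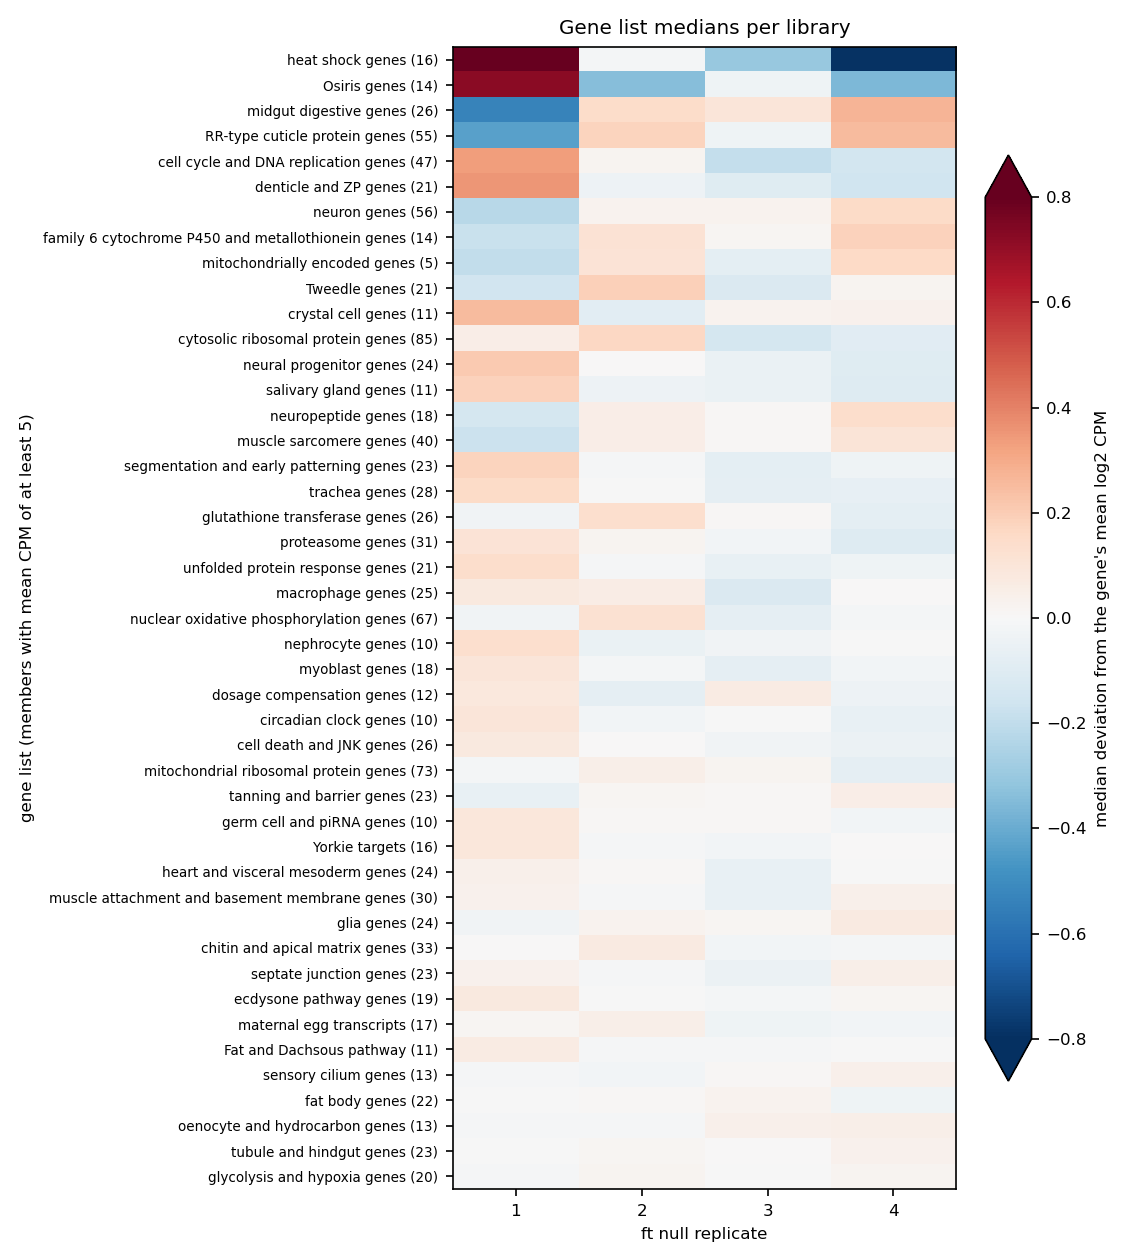
Heat map of list medians: rows are 45 gene lists in order of the range of their medians, with the number of measured members, columns are the 4 replicates, and colour is the median deviation from each gene's own mean log2 CPM, cut at -0.8 and 0.8. Heat shock genes have the widest medians (1.47 in replicate 1 and -0.79 in replicate 4) and glycolysis genes the flattest.

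Neuron genes moved together by small amounts. None of 56 was wide, against 6.74% of all genes. Yet 50 of 56 were at or under their own mean in replicate 1, where 52.3% of all genes were above theirs. In replicate 4, 55 of 56 were above their own mean, against 47.2% of all genes. The medians were -0.22, 0.03, 0.03 and 0.15. *Rdl*, which encodes a GABA receptor, was the widest, at 55.0, 102, 98.9 and 109.5 CPM, and *para*, the sodium channel gene, had 79.4, 103, 116 and 130.1 CPM. The defining marker *elav*, an RNA-binding protein gene of all neurons, did not share this, with 99.4, 89.6, 100.5 and 92.8 CPM. *nSyb*, a synaptic vesicle gene, stood at 195, 206, 179 and 222.5 CPM.

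Muscle sarcomere genes had a like direction, with medians of -0.17, 0.05, 0.01 and 0.10 over 40 genes, of which 1 was wide (2.5%, against 6.74% of all genes). That gene was *Zasp66*, which encodes a Z-disc protein, at 246, 547, 518 and 646 CPM. *Act57B*, the muscle actin gene with the most reads, had 13648, 15988, 15893 and 16361 CPM. Among 24 glia genes the 1 wide gene (4.17%) was *CG6126*, at 66.9, 113, 112 and 138 CPM. *Gs2*, a glutamine synthetase gene, fell just short with a range of 0.99, at 227, 351, 336 and 451 CPM. Among genes outside muscle and glia, replicate 1 was low and replicate 4 high in the fatty acid elongase genes *bond* (18.6, 42.1, 39.6 and 67.9 CPM) and *sit* (92.4, 340.2, 324 and 559 CPM). *LManVI*, a lysosomal mannosidase gene, had 11.3, 29.8, 43.3 and 80.6 CPM. Macrophage genes were mostly low in replicate 3, where 21 of 25 measured were at or under their own mean, a share not counted over all genes. Replicate 3 was the lowest library in 15 of the 25. Of all genes, 10.7%, 5.83% and 3.8% had it lowest with replicate 1, 2 and 4 highest. In replicate 1, 17 of 25 macrophage genes were above their own mean, against 52.3% of all genes. The medians were 0.08, 0.06, -0.12 and 0.00. Of the 25, 3 were wide (12.0%, against 6.74% of all genes), and these did not share a direction. *Hml*, which encodes a clotting protein of blood cells, was low in replicate 1, at 2.78, 8.21, 9.60 and 15.5 CPM. *NimC4*, a receptor gene for engulfing dead cells, was low in replicate 4, at 46.96, 35.4, 32.4 and 21.6 CPM, and the related gene *NimB3* was high in replicate 2, at 12.98, 18.5, 11.02 and 8.53 CPM.

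Cytosolic ribosomal protein genes were high in replicate 2 and low in replicates 3 and 4. Of 85 measured, 9 were above their own mean in replicate 3 and 7 in replicate 4, against 47.2% of all genes in replicate 4. For replicate 3 that share of all genes was not counted. The list medians were 0.05, 0.17, -0.14 and -0.09, and 84 of 85 were above their own mean in replicate 2, against 53.1% of all genes. Replicates 1 and 2 were high in 38 of 85, a pattern of 6.5% of all genes. Replicate 2 was the highest library in 60 of 85. Of all genes, 6.52%, 5.83% and 4.1% had replicate 2 highest with replicate 1, 3 and 4 lowest. Replicate 1 was the highest in 23 of 85, against 37.3% of all genes. Of the 23, *RpL24* stood at 339, 303, 165 and 202 CPM and *RpS2*, the list member with the most reads, at 1259, 1177, 894 and 937 CPM. Without replicate 1 the range of the medians was 0.31, the same as with it. Nuclear genes of oxidative phosphorylation were above their mean in replicate 2 in 65 of 67 cases, with medians of -0.03, 0.12, -0.07 and -0.01.

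By chromosome, the 76 measured genes of chromosome 4 were lower in replicate 1 as a set, with medians of -0.16, 0.00, 0.04 and 0.14. In replicate 1, 74 were at or under their own mean and 2 above it, against 52.3% of all genes above theirs. The exceptions were *PlexA*, a semaphorin receptor gene, and *apolpp*, which encodes the main blood lipoprotein, at 2638, 2347, 2431 and 2380.5 CPM. None of the 76 was wide, against 6.74% of all genes. X-linked genes had a median of 0.07 in replicate 1 and -0.03 in replicates 3 and 4, and medians on 2L, 2R, 3L and 3R lay between -0.02 and 0.02 in every library. *lncRNA:roX1*, an RNA of the dosage compensation complex made in males, stood at 538, 690.2, 812 and 769 CPM, and *lncRNA:roX2* at 10.1, 12.1, 14.3 and 13.2 CPM. *Sxl*, the switch gene of sex determination, had 276, 261, 258 and 263 CPM. The share of males in each library is not given in the labels, and its part in these values was not tested.

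Most markers of tissues that whole embryos should lack were at low levels. Of the follicle cell and egg shell list, 24 of 29 genes stayed under 1 CPM in all 4 libraries, and of the testis and male accessory gland list 81 of 89. The 4 measured genes of each include some with other uses, such as *Cp1*, a cathepsin gene caught by the name pattern of the first list (379.8, 347, 359.9 and 341 CPM), and *Acp65Aa*, a cuticle gene caught by that of the second (3.63, 8.97, 7.11 and 8.25 CPM). *Acp36DE*, also of the second list, passed the level filter too and was wide, with a range of 1.03. Summed over its matched genes, the second list stood at 497, 550, 581 and 606 CPM, and 2 of its 4 measured genes were wide.

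At the other end of the ranking, the 5 steadiest genes had ranges of 0.01 to 0.02. *Spt-I*, which encodes a subunit of the enzyme that starts sphingolipid synthesis, stood at 80.7, 80.9, 80.5 and 80.8 CPM. *Pex14*, a peroxisome import gene, had 75.1, 75.3, 75.5 and 75.9 CPM, and *krz*, the arrestin gene, 41.9, 41.5, 42.0 and 41.8 CPM. *mRpS11*, a mitochondrial ribosomal protein gene, and *CG8311* completed the 5.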

How the data were processed

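Whole-embryo RNA was measured in 6 libraries, of which the 4 *ft* null ones were used. Libraries were made with the SMARTer Ultra Low kit from 10 ng of RNA (integrity above 8.0), with 12-15 PCR cycles and paired reads of 150 bases, per the labels' protocols. That kit does not mark strand, so overlapping and antisense genes cannot be told apart, and without molecular identifiers PCR copies are counted. The values the authors deposited are estimated counts without normalization. Build dm6 and the tools Salmon 1.80, Trimmomatic 0.33, FastQC 0.10 and edgeR are named per the submitters' processing notes. No annotation release or option is named there. Between 29.6% and 34.8% of values in a library were not whole.

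These estimates were rounded and scaled by TMM factors over the 4 libraries (edgeR 4.0.16, R 4.3.3); log2 CPM used a prior count of 2. Dispersion was estimated with an intercept alone. The steps were tested on simulated data. No test was run, since 1 group holds all libraries. The genes and lists were chosen with earlier results of these data known. Named genes are *ft*, the 25 widest and 5 steadiest genes, 3 from each of 48 lists (2 widest, 1 highest) and the 5 with the largest gap in each of the 3 commonest patterns; other members named of the 6 lists with the widest medians were chosen after their values were seen. So were *ds*, *fj*, *CG32857*, *Trl*, *eIF5*, *Arc1*, *Np*, *ImpE1*, *ImpE2*, *Hr39*, *Twdlalpha*, *TwdlU*, *Cht5*, *CG13051*, *CG4962*, *bora*, *para*, *elav*, *nSyb*, *sit*, *LManVI*, *PlexA*, *lncRNA:roX2*, *Sxl*, *spz6*, *mas*, *amd* and *NimB3*. Of the list entries, 1681 matched the table and 77 did not. Positions are from Ensembl release 115 (BDGP6.54, dm6 coordinates), which held 8606 of 8675 genes. Alternatives were plain CPM, DESeq2 (1.42.0) size factors and dispersions, TMM over all libraries, other level filters, prior count 0.5, unrounded counts, a range of at least 2 and leaving out each library.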

Additional observations from a re-analysis of the deposited data

Results flagged for a closer look

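With 4 libraries, a value was set aside for a closer look where its gap to the nearest other library, divided by the whole range, passed Dixon's 95% critical value for 4 values. Chance alone does this in about 1 of 20 groups, and 412 of the 8675 genes (4.75%) passed, so no pattern is read from the following.

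The medians of the Fat and Dachsous list had a Dixon value of 0.931, since replicate 1 (0.07) lay apart from medians of -0.01, -0.01 and -0.00. Replicate 1 was the low library in *Cpr65Ax1* (0.951), *CG40198* (0.851), *Cpr49Af* (0.832), *Rdl* (0.851), *dila* (0.867), *nrv2* (0.919), *Act57B* (0.84), *mag* (0.874) and *PGRP-LF* (0.832). It was the high one in *Hsp70Bc* (0.833), a gene with near-identical copies, and in *per* (0.836). *CG40198* stood at 0.425, 7.09, 6.94 and 11.1 CPM in replicates 1 to 4, and *nrv2*, a sodium pump subunit gene, at 565, 668, 664 and 673 CPM. Replicate 4 was the odd library in *CG33502* (1.0) and its neighbour *CG32857* (0.939), in opposite directions. Replicate 3 was the low one in *rudhira* (0.838), at 468, 448, 336 and 474 CPM.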

How the results depend on the processing

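Plain CPM, DESeq2 size factors, TMM over all libraries, prior count 0.5 and unrounded counts left every count, share and lead list range within 1.5 times its value or the spread between replicates, and DESeq2 dispersions gave a coefficient of variation of 12.1%. Filters moved the counts. With a mean of at least 1 CPM, 1015 genes were wide (558 with replicate 1 low, 49 with replicates 1 and 3 high), and with 20 CPM 320 (188 with replicate 1 low). With no filter 15140 genes were ranked, the median range was 0.52 and 3360 genes were wide, of which 971, 330 and 152 had the patterns replicate 1 low, replicate 1 high and replicates 1 and 3 high. A range of at least 2 left 92 genes, with 58, 13 and 3 in these patterns. Leaving out each library gave 8642 to 8677 genes, a median range of 0.21 to 0.29, 87 to 562 wide genes, 212 to 364 with replicate 1 low, 83 to 133 with it high and 23 to 133 with replicates 1 and 3 high, where leaving out 1 of that pair merges patterns. The first component held 53.6% to 85.7% and the coefficient of variation was 11.1% to 19.5%. Ranges of list medians were 0.38 to 2.54 for heat shock, 0.18 to 1.12 for Osiris, 0.23 to 0.81 for midgut, 0.28 to 0.70 for RR cuticle, 0.20 to 0.54 for cell cycle and 0.074 to 0.54 for denticle and ZP genes. For each the lowest value was that without replicate 1, and the cause was not tested. Without replicate 4 the wide genes numbered 387. Of single genes named, 101 moved without replicate 1 and 70 did not. No paired analysis was possible because all libraries belong to 1 group. A level of 5 CPM stood for 106 to 144 reads, but the low library of a wide gene could hold fewer, such as 9 for *CG40198* in replicate 1. The part of counting error in single ranges was not tested. Other limits are 4 libraries, 1 of them apart, and reads split by a model between copies.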

Other observations

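Genes of other lists also differed between the libraries. Crystal cells are blood cells that hold the melanin enzyme encoded by *PPO1*, which stood at 103, 49.8, 100.2 and 82.8 CPM in replicates 1 to 4, so replicate 2 was the low one. *CG7860*, of the same list, had 67.3, 25.1, 22.6 and 16.2 CPM. The clock regulator gene *vri* had 34.2, 17.9, 21.6 and 15.7 CPM and *per* 9.67, 6.10, 5.57 and 5.65 CPM, both highest in replicate 1. Of 26 glutathione transferase genes, *GstE7* was the 1 wide member (3.85%, against 6.74% of all genes), at 80.2, 99.2, 56.4 and 47.6 CPM. Family 6 cytochrome P450 genes, which break down foreign compounds, share a list with metallothioneins. It had 5 wide members of 14, against 6.74% of all genes. All 5 were low in replicate 1, a pattern of 61.2% of all wide genes, among them *Cyp6a23* at 117, 185, 226 and 256 CPM. The growth factor gene *spz6* had 33.1, 11.5, 12.97 and 4.09 CPM and *mas*, which encodes a protease-like protein of muscle attachment, 81.9, 26.7, 42.7 and 14.3 CPM.

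The ribosomal RNA precursor pre-rRNA:CR45847, under the level filter over 4 libraries, stood at 0, 9.24, 0 and 8.77 CPM.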
